A study of Mus musculus with 11 samples.

Results

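The genes described here make cholesterol, or control how much of it is made: Hmgcs1, Idi1, Fdps, Fdft1, Cyp51, Msmo1, Dhcr7 and Insig1. They were chosen by name, as sterol pathway genes listed in a table of ribosome footprint counts, and are 8 of the 4338 genes in that table. The choice was made with earlier results of these data known. For each gene the transcript with most counts over all libraries was used, and 7 of the 8 passed the filter on low counts (Idi1 did not). The 7 enzymes are described in the order of the pathway, followed by the regulator Insig1.

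Footprints are pieces of messenger RNA that survive nuclease digestion because a ribosome covers them. They were sequenced from mouse cortex, where the number of footprints on a transcript reflects both how much of it there was and how often it was translated. No total RNA was analysed here, so these cannot be told apart, and in whole tissue fewer cells of a type and less RNA per cell cannot be told apart either. All animals were wild-type C57BL6 mice of 7 to 8 weeks. Ipsilateral cortex (4 libraries, replicates 2, 4, 5 and 6) came from the hemisphere in which the middle cerebral artery had been blocked by a suture for 35 min and then reopened for 3 h. Contralateral cortex (4 libraries, replicates 1, 4, 5 and 6) came from the opposite hemisphere of operated mice, with the same occlusion and reperfusion. Sham cortex (3 libraries, replicates 1, 2 and 5) came from mice that were anaesthetised and had their arteries exposed with no suture, and the hemisphere was not stated. A replicate number marks a day of surgery, and how many animals went into a library was not stated. The tissue field of the ipsilateral samples reads contralateral, while their titles and descriptions say ipsilateral, and the titles were followed. All comparisons with sham use the same 3 sham libraries, and both comparisons with contralateral cortex use the same 4 contralateral ones, so the comparisons are not independent of each other.

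Cells build cholesterol from acetyl-CoA by way of mevalonate, farnesyl diphosphate, squalene and lanosterol. When membrane sterol in the endoplasmic reticulum is scarce, the escort protein Scap carries the membrane-bound SREBP transcription factors to the Golgi, where proteases release their active fragment, which raises transcription of nearly every enzyme of the pathway. Insig proteins hold Scap in the endoplasmic reticulum when sterol is plentiful. The adult brain makes nearly all of its own cholesterol, because lipoproteins do not cross the blood-brain barrier; oligodendrocytes put it into myelin and astrocytes pass it to neurons on apolipoprotein E.

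Promoter sequences are shown because these genes are textbook SREBP targets, and the 2 motifs searched are those of the factors that regulate the pathway. RefSeq windows of 300 bases on GRCm38.p6, running from 250 bases before the annotated start to 50 after it, were found for 6 of the 8 genes (all but Fdps and Fdft1). A core of the sterol regulatory element, searched on both strands as CACNCCAC, stood in 2 of these 6 genes, Hmgcs1 and Insig1, against 6.24% of 32851 windows in the table. The box CCAAT, bound by the SREBP partner NF-Y, stood in 6 of 6 genes, against 37.4% of the windows, and 2.09% of all windows held both motifs. In Hmgcs1 the core lay at bases -136 to -129 on the gene's strand, with the start site as base 0, and in Insig1 at -9 to -2 on the opposite strand. The number of boxes was 4 in Hmgcs1, 3 in Msmo1, 2 in Idi1, and 1 each in Cyp51 and Insig1. Dhcr7 had 3 RefSeq windows and was counted if any of them matched, while the shares over all windows take each window singly. The first pair held neither motif, and the third, which starts downstream of the first base of the annotated gene, held 2 boxes. Which of these windows belongs to the counted transcript was not determined. A match is a match of letters and not a measured binding site. The windows below are those of both genes with the core, of Dhcr7, which had the largest difference from sham, and of Msmo1, which had none above its error. Capitals mark the core and the boxes (ATTGG where the box is on the opposite strand).

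The Hmgcs1 window is chr13:119690101-119690400 on the plus strand, that of Insig1 chr5:28071162-28071461 on the plus strand, the third of Dhcr7 chr7:143829964-143830263 on the plus strand and that of Msmo1 chr8:64733529-64733828 on the minus strand; each is printed 5′ to 3′ along its gene.
Hmgcs1: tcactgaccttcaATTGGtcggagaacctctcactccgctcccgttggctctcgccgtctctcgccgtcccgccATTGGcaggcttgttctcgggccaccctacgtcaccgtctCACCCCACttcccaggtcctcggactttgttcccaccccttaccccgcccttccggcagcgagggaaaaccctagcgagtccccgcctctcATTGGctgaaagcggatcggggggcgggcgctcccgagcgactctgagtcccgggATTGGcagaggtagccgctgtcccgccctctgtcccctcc
Insig1: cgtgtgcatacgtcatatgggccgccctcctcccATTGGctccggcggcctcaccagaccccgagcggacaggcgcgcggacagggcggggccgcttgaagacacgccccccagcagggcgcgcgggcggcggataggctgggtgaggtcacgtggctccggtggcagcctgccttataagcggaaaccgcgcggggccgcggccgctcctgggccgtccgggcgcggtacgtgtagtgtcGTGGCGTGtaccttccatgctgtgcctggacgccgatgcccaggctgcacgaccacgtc
Dhcr7: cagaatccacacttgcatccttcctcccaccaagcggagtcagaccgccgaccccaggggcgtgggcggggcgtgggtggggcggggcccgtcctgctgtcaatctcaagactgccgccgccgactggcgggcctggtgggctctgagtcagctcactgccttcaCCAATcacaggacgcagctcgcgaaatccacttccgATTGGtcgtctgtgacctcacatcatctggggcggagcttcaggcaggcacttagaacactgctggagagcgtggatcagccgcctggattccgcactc
Msmo1: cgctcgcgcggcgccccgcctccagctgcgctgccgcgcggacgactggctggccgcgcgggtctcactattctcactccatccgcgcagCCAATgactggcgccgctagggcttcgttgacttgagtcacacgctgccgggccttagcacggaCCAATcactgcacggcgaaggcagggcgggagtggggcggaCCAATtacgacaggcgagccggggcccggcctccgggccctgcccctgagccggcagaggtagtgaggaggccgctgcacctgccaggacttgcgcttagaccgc

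The libraries were shallow and uneven. Summed over genes, they held 35068 counts (ipsilateral replicate 4) to 571351 counts (contralateral replicate 6), a 16.3-fold range. Ipsilateral replicate 4 stood apart from the other libraries on the first principal component (30.3% of the variance) and sham replicate 2, the second shallowest library, on the second (18.3%). Levels below are CPM, counts scaled to a normalised library total of 1000000, listed in the order of the replicate numbers given above. Single counts carry wide errors at this depth: the 4 Dhcr7 counts of ipsilateral replicate 4 have an exact Poisson 95% interval of 1.09 to 10.2 counts, which covers counting error only. Of the cortical layer markers, 5 of 10 were in the table, at summed levels of 411 to 532 CPM in ipsilateral, 367 to 451 CPM in contralateral and 487 to 491 CPM in sham libraries. Cux1, Fezf2, Bcl11b, Tle4 and Foxp2 were not in the table. Of 9 striatal markers, 4 were in it, at 235 to 740 CPM in ipsilateral, 245 to 761 CPM in contralateral and 567 to 942 CPM in sham libraries.

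Per kilobase of coding sequence, Hmgcs1 was the highest of the 8 genes in every group. It averaged 687 ± 130 CPM per kb in ipsilateral cortex, 632 ± 56.1 in contralateral cortex and 564 ± 87.7 in sham cortex (SD, n = 4, 4 and 3). Fdft1 and Msmo1 came next, and their order changed with the group: Fdft1 averaged 272 ± 81.9 CPM per kb in ipsilateral, 228 ± 49.8 in contralateral and 201 ± 24.3 in sham cortex. Msmo1 averaged 246 ± 31.0 CPM per kb in ipsilateral, 257 ± 27.1 in contralateral and 266 ± 47.7 in sham cortex. These 2 genes overlapped within their SDs in every group. Cyp51 averaged 158 ± 11.7, 133 ± 23.1 and 109 ± 11.2 CPM per kb in ipsilateral, contralateral and sham cortex. In sham cortex it did not differ beyond the spread from Fdps, at 116 ± 26.9 CPM per kb. Fdps, Insig1, Idi1 and Dhcr7 lay lowest in both hemispheres of operated mice, between 64.8 and 110 CPM per kb. In sham cortex they lay between 31.6 and 116 CPM per kb, with the mean of Fdps above that of Cyp51. Among these 4, neighbours in the order overlapped within their SDs in every group, except that Fdps stood above Insig1 (46.8 ± 7.14 CPM per kb) in sham cortex.

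**Figure D1:**
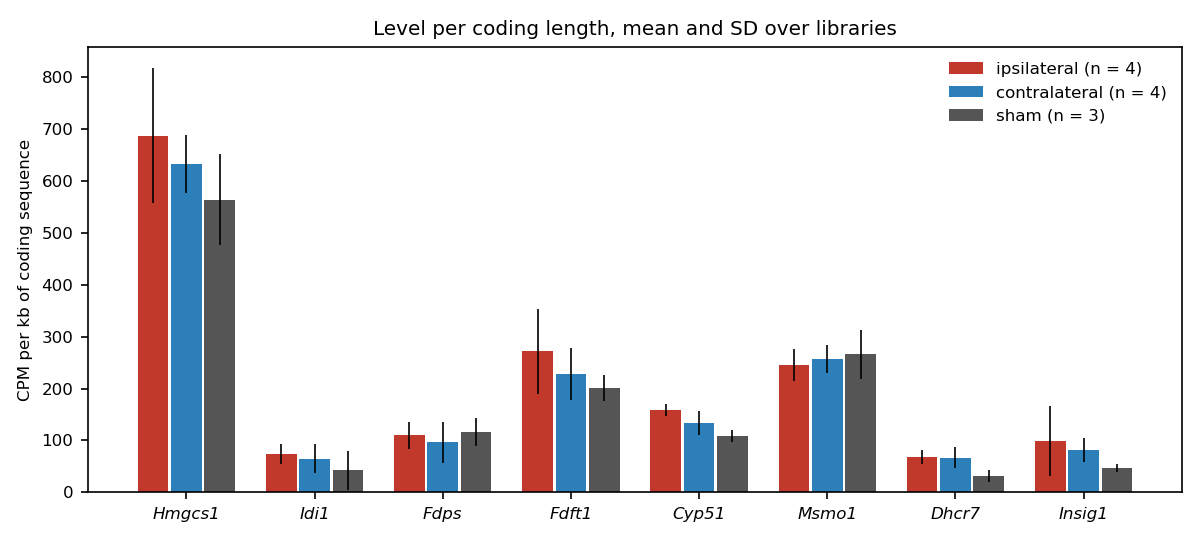
Footprint level per kilobase of coding sequence (CPM per kb) for each of the 8 genes, as the mean over libraries with SD bars, in ipsilateral (n = 4), contralateral (n = 4) and sham (n = 3) cortex. Hmgcs1 stands above the rest in all 3 groups, at 687, 632 and 564 CPM per kb.

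Hmgcs1 makes HMG-CoA in the cytosol, an early step of the pathway. Its gene (counted transcript ENSMUST00000179869) lies on mm10 chromosome 13, 119690379 to 119708260, on the plus strand. It had 957, 851, 1290 and 1200 CPM in ipsilateral libraries, 1050, 1000, 858 and 1030 CPM in contralateral libraries and 970, 723 and 948 CPM in sham libraries. Its counts, 29 to 581 per library, were the highest of the 8 genes. Ipsilateral replicates 5 and 6 lay above every other library, the lowest value was that of sham replicate 2, and the groups overlapped. The log2 difference between ipsilateral and sham cortex was 0.28 ± 0.17 (SE), with a 95% interval of -0.06 to 0.62 (edgeR, adjusted p = 0.739). That between ipsilateral and contralateral cortex was 0.14 ± 0.15 (adjusted p = 0.894).

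Idi1 interconverts the isomeric isoprenoid units from which farnesyl diphosphate is built. The gene (counted transcript ENSMUST00000169314) lies on chromosome 13, 8885501 to 8892451, on the plus strand. Its levels were 44.8, 58.7, 61.9 and 86.0 CPM in ipsilateral libraries, 80.8, 53.5, 23.6 and 62.2 CPM in contralateral libraries and 51.0, 0 and 58.2 CPM in sham libraries. Behind these stand only 2 to 10 counts per ipsilateral library, 7 to 35 per contralateral library and 0 to 13 per sham library. The value of 0 is that of sham replicate 2, where 3 counts would be 47.1 CPM. Its exact Poisson 95% interval reaches up to 57.9 CPM, against 51.0 and 58.2 CPM in the other sham libraries. The groups overlapped and Idi1 was not tested.

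Fdps makes farnesyl diphosphate, the last intermediate that sterols share with dolichol, ubiquinone and protein prenylation. Its gene (counted transcript ENSMUST00000081848) lies on chromosome 3, 89093588 to 89101959, on the minus strand. Fdps had 142, 88.0, 99.0 and 138 CPM in ipsilateral libraries, 67.4, 161, 77.4 and 103 CPM in contralateral libraries and 90.3, 141 and 138 CPM in sham libraries. High and low values occurred in every group. The fitted difference of 0.10 ± 0.33 between ipsilateral and sham cortex (edgeR, adjusted p = 0.990) had no stable sign: it was -0.32 with the day of surgery as a block. The mean was 117 ± 27.2 CPM in ipsilateral and 123 ± 28.5 CPM in sham cortex (SD, n = 4 and 3). Of the 28-base words of this transcript, 86.0% also occur in other annotated genes, mainly Gm43738 on the same strand, so its counts are uncertain.

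Fdft1 (squalene synthase) joins 2 farnesyl diphosphates in the first step committed to sterols. The gene (counted transcript ENSMUST00000054963) lies on chromosome 14, 63145150 to 63179578, on the minus strand. Its levels were 269, 440, 235 and 413 CPM in ipsilateral libraries, 216, 359, 306 and 258 CPM in contralateral libraries and 251, 220 and 281 CPM in sham libraries. Ipsilateral replicates 4 and 6 were the highest, while ipsilateral replicates 2 and 5 lay within the range of sham cortex. The ipsilateral minus sham difference was 0.36 ± 0.25 (edgeR, adjusted p = 0.796). The words shared with other genes were 22.8% for Fdft1, all with Gm6781, and 22.3% for Idi1, so the counts of both are uncertain too.

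Cyp51 removes a methyl group of lanosterol, the first sterol of the pathway. Its gene (counted transcript ENSMUST00000001507) lies on chromosome 5, 4081145 to 4104746, on the minus strand. Cyp51 had 232, 264, 235 and 224 CPM in ipsilateral libraries, 175, 252, 192 and 185 CPM in contralateral libraries and 185, 157 and 154 CPM in sham libraries. All 4 ipsilateral libraries lay above all 3 sham libraries, and the contralateral libraries overlapped both groups. The ipsilateral minus sham difference was 0.48 ± 0.25, with a 95% interval of -0.02 to 0.98 (edgeR, adjusted p = 0.672). On both days with a library of each group it was above 0, at 0.53 and 0.58 on the log2 scale. Against contralateral cortex of the same day, ipsilateral cortex was higher on 3 of 3 days, by 0.06 to 0.28.

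Msmo1 oxidises the remaining methyl groups of the sterol ring. The gene (counted transcript ENSMUST00000034015) lies on chromosome 8, 64718139 to 64733792, on the minus strand. It measured 224, 205, 186 and 249 CPM in ipsilateral libraries, 209, 206, 232 and 258 CPM in contralateral libraries and 200, 220 and 281 CPM in sham libraries. Its lowest and highest libraries were closer to each other, relative to its level, than those of any other of the 8 genes, with sham replicate 5 highest and ipsilateral replicate 5 lowest. The ipsilateral minus sham difference was -0.09 ± 0.24 (edgeR, adjusted p = 0.988), and without sham replicate 5 it was 0.09.

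Dhcr7 reduces the last double bond of one route to cholesterol, and its substrate is also the precursor of vitamin D. Its gene (counted transcript ENSMUST00000073878) lies on chromosome 7, 143823145 to 143848410, on the plus strand. Dhcr7 had 105, 117, 86.6 and 77.4 CPM in ipsilateral libraries, 60.6, 130, 90.8 and 94.1 CPM in contralateral libraries and 39.3, 62.8 and 31.8 CPM in sham libraries. The ipsilateral values were all higher than the sham values, as were 3 of the 4 contralateral libraries; contralateral replicate 1 lay just below sham replicate 2. The ipsilateral minus sham difference was 1.22 ± 0.40, with a 95% interval of 0.40 to 2.04 (edgeR, adjusted p = 0.346). The contralateral minus sham difference was of the same size, 1.21 ± 0.35, with a 95% interval of 0.51 to 1.91 (adjusted p = 0.636). Between the hemispheres the difference was 0.00 ± 0.31, with a 95% interval of -0.61 to 0.62 (adjusted p = 1.000). On the 3 days with both hemispheres, ipsilateral cortex was slightly below contralateral cortex each time, at -0.25 to -0.06 on the log2 scale. The sham values rest on 10, 4 and 6 counts and the ipsilateral ones on 14, 4, 7 and 9.

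Insig1 encodes the endoplasmic reticulum protein that retains Scap, and it is itself a target of SREBP. The gene (counted transcript ENSMUST00000059155) lies on chromosome 5, 28071363 to 28078662, on the plus strand. It had 44.8, 58.7, 49.5 and 155 CPM in ipsilateral libraries, 74.1, 76.5, 67.3 and 37.3 CPM in contralateral libraries and 35.3, 31.4 and 42.4 CPM in sham libraries. All 4 ipsilateral libraries lay above the sham libraries, but 3 of them by little, and ipsilateral replicate 6 alone lay far above. The ipsilateral minus sham difference was 1.11 ± 0.50, with a 95% interval of 0.10 to 2.13 (edgeR, adjusted p = 0.580). Without ipsilateral replicate 6 the gene failed the filter on low counts and had no fitted value. Within days, ipsilateral was above sham cortex by 0.40 and 0.18 on the log2 scale. Against contralateral cortex of the same day it was lower on days 4 and 5 (-0.33 and -0.37) and higher on day 6 (1.78). These values rest on 2 to 18 counts per ipsilateral library, 10 to 21 per contralateral library and 2 to 9 per sham library.

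**Figure D2:**
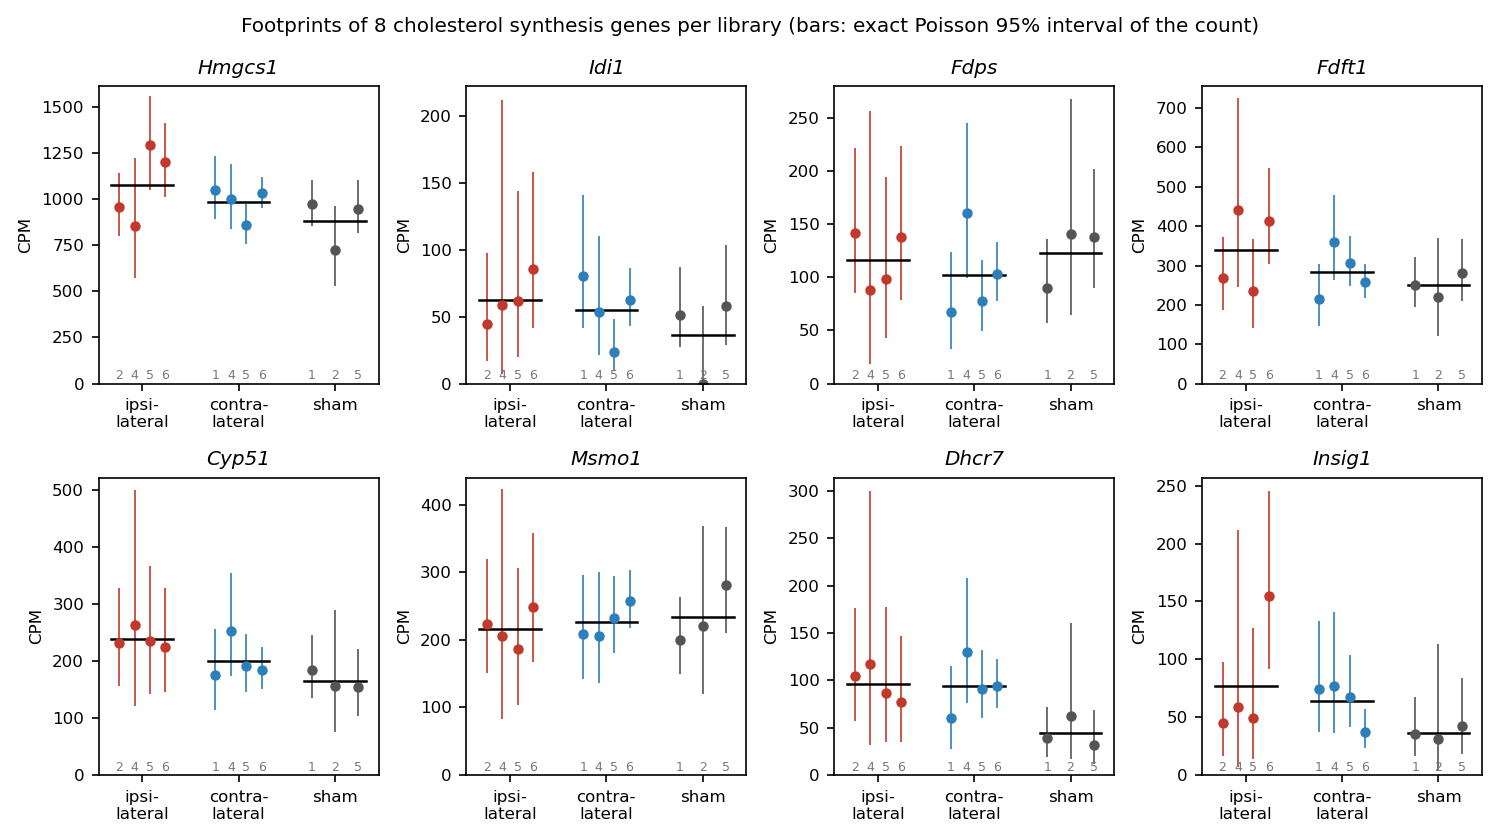
Level of each of the 8 genes in every library (CPM; points, with the replicate number at the foot), with exact Poisson 95% intervals of the counts as thin bars and group means as black lines, for ipsilateral, contralateral and sham cortex. The ipsilateral points of Cyp51, Dhcr7 and Insig1 lie above all sham points, and the contralateral mean of Dhcr7 (93.9 CPM) is close to its ipsilateral mean (96.5 CPM).

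In ipsilateral against sham cortex, none of the 7 tested genes passed an adjusted p of 0.05 in edgeR, where 0.104% of all 3835 tested genes did. The count was also 0 in limma-voom. In DESeq2 it was 0 of the 4 genes given an adjusted p, while Dhcr7, Insig1 and Fdps were given none. In edgeR 2 genes, Dhcr7 and Insig1, both higher, had an unadjusted p below 0.05, where 7.74% of all tested genes had one in either direction. The groups did not overlap, with ipsilateral higher, for 3 of 7 genes (Cyp51, Dhcr7 and Insig1), where this held for 3.91% of all tested genes with ipsilateral higher and for 3.29% with it lower. Differences were above 0 for 6 of 7 genes, with a median of 0.36, while 49.9% of all tested genes were above 0 with a median of -0.00. Dhcr7 and Insig1 were low in every sham library, at 31.8 to 62.8 and 31.4 to 42.4 CPM. They passed the filter on low counts through libraries of operated mice. Both genes with an unadjusted p below 0.05 and 2 of the 3 with groups apart are of this kind. These counts therefore only describe the genes that passed. The genes were also chosen with earlier results of these data known. Shares over all tested genes, here and below, are thus set beside them as a description and not as a test. With ipsilateral and sham libraries alone in the fit Insig1 was not tested, and 5 of 6 genes were above 0 with a median of 0.32. Leaving out ipsilateral replicate 6, which also removes Insig1 from the test, gave a median of 0.20 over the 6 genes left.

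In ipsilateral against contralateral cortex none of the 7 genes passed in edgeR, where 0.365% of all tested genes did, and none did in limma-voom. In DESeq2 none of 6 did, and Insig1 was given no adjusted p. None had an unadjusted edgeR p below 0.05 either, where 7.61% of all tested genes had. The groups overlapped for all 7 genes, where 2.35% of all tested genes had groups apart with ipsilateral higher and 2.06% with it lower. Differences were above 0 for 6 of 7 genes with a median of 0.21, against 51.4% and a median of 0.01 over all tested genes. Single libraries moved this median: over the 6 genes then tested, Insig1 not among them, it was 0.10 without ipsilateral replicate 6 and 0.13 without contralateral replicate 1 or 5. The largest was that of Insig1, 0.49 ± 0.41 (adjusted p = 0.839), followed by Fdps at 0.34 ± 0.30 (0.844), Cyp51 at 0.25 ± 0.22 (0.844) and Fdft1 at 0.21 ± 0.22 (0.887). Msmo1 measured -0.07 ± 0.22 (0.988). Dhcr7, counted among the 6 genes above 0, measured 0.00 ± 0.31 and ranged from -0.17 to 0.11 over 20 settings.

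In contralateral against sham cortex none of the 7 genes passed in edgeR, where 0% of all tested genes did; none passed in DESeq2 or limma-voom, and Dhcr7 had an unadjusted edgeR p below 0.05, as did 5.66% of all tested genes in either direction. The groups overlapped for all 7 genes, where 3.39% of all tested genes had groups apart with contralateral higher and 4.30% with it lower. Differences were above 0 for 5 of 7 genes with a median of 0.14, against 49.3% and a median of -0.00 over all tested genes. It was 0.23 without sham replicate 1 and 0.10 without sham replicate 2 over the same 7 genes, and with the day of surgery as a block it was 0.08. After Dhcr7, Insig1 was the highest at 0.62 ± 0.46 (adjusted p = 0.950), and Fdps was the lowest at -0.24 ± 0.29 (0.973). Here too, Dhcr7 and Insig1 were genes that passed the filter on low counts through libraries of operated mice. Cyp51 measured 0.23 ± 0.23 (0.964), Hmgcs1 0.14 ± 0.16 (0.973) and Msmo1 -0.03 ± 0.22 (1.000). Fdft1 measured 0.14 ± 0.23 (0.980), and -0.11 with the day of surgery as a block.

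**Figure D3:**
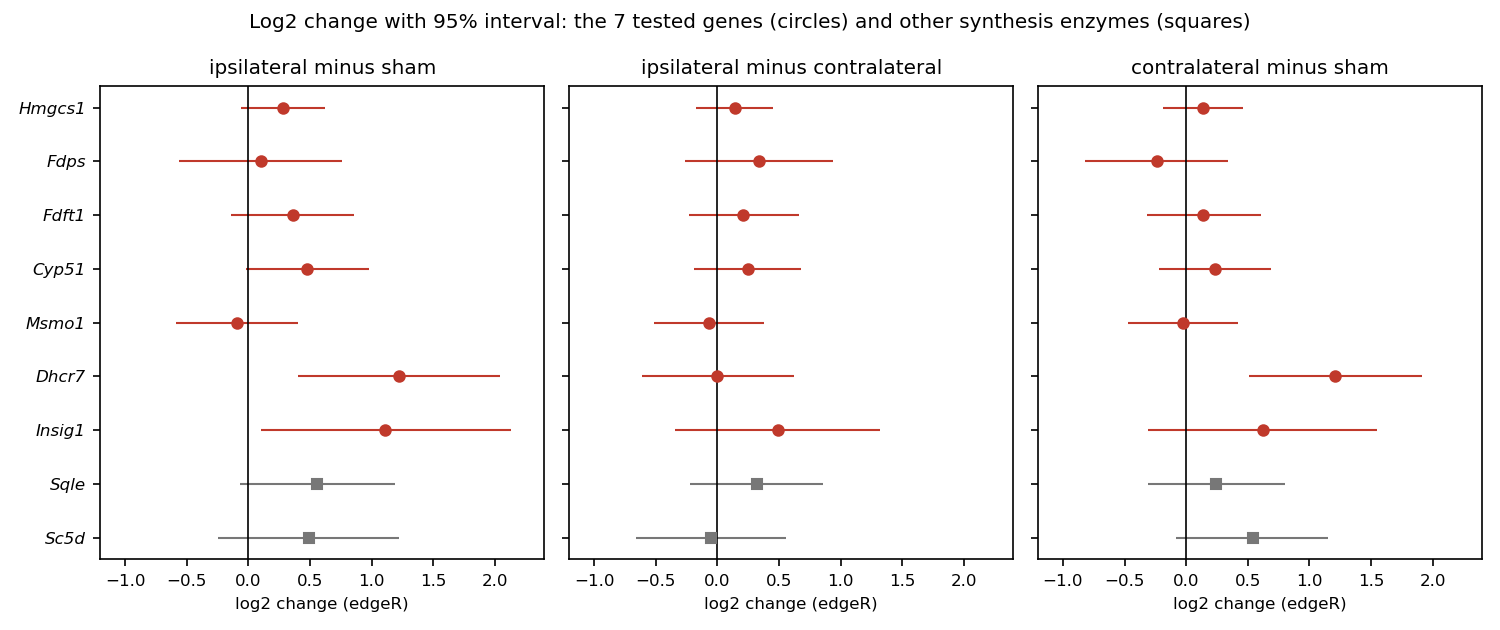
Fitted log2 difference with its 95% interval for the 7 tested genes (circles) and the further synthesis enzymes Sqle and Sc5d (squares) in each comparison. Dhcr7 lies at 1.22 and 1.21 against sham in ipsilateral and contralateral cortex and at 0.00 between the hemispheres, while Sqle lies at 0.56 and 0.24 against sham in ipsilateral and contralateral cortex and at 0.32 between the hemispheres.

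The group means were ordered ipsilateral, contralateral, sham, from high to low, in 6 of the 8 genes. Fdps had sham highest and contralateral lowest, and Msmo1 had sham highest and ipsilateral lowest. By library, ipsilateral replicates 4 and 6 and contralateral replicate 4 each held the highest value of 2 genes, and sham replicate 2 held the lowest value of 3. Summed over all 8 genes, the level was 2020, 2080, 2240 and 2540 CPM in ipsilateral libraries, 1930, 2240, 1850 and 2030 CPM in contralateral libraries and 1820, 1550 and 1930 CPM in sham libraries. All ipsilateral sums lay above all sham sums, and the contralateral sums overlapped both. Hmgcs1 makes up a large part of these sums. Without it they were 1060, 1230, 953 and 1340 CPM in ipsilateral libraries, 882, 1240, 989 and 996 CPM in contralateral libraries and 852, 832 and 985 CPM in sham libraries, and ipsilateral replicate 5 then lay below sham replicate 5.

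Summed levels of some glial markers also differed between the groups. The 9 of 14 oligodendrocyte markers in the table summed to 7360, 5840, 3180 and 4340 CPM in ipsilateral libraries, 2400 to 3420 CPM in contralateral libraries and 2410 to 3090 CPM in sham libraries; Mobp, Opalin, Ermn, Fa2h and Aspa were not in the table. All 9 were above 0 in ipsilateral against sham cortex, with a median of 0.90. None passed in edgeR, where 0.104% of all tested genes did. An unadjusted p below 0.05 was found for 7, where 7.74% of all tested genes had one. In ipsilateral against contralateral cortex 4 of 9 passed, all higher, where 0.365% of all tested genes did. The 9 of 12 microglia markers in the table summed to 1650 to 2160 CPM in ipsilateral, 1290 to 1470 CPM in contralateral and 942 to 1250 CPM in sham libraries; Tmem119, Trem2 and Aif1 were not in the table. Astrocyte markers (13 of 13) summed to 12700 to 13800 CPM in ipsilateral, 12100 to 17100 CPM in contralateral and 11100 to 14100 CPM in sham libraries. Neuron markers (12 of 12) summed to 14800 to 17400 CPM in ipsilateral, 15500 to 19100 CPM in contralateral and 15700 to 18200 CPM in sham libraries. Blood markers (4 of 7) summed to 1040 to 2020 CPM in ipsilateral, 566 to 989 CPM in contralateral and 895 to 1320 CPM in sham libraries, and none of 8 endothelial markers was in the table. The part of any cell type in the values of the 8 genes was not tested.

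**Figure D4:**
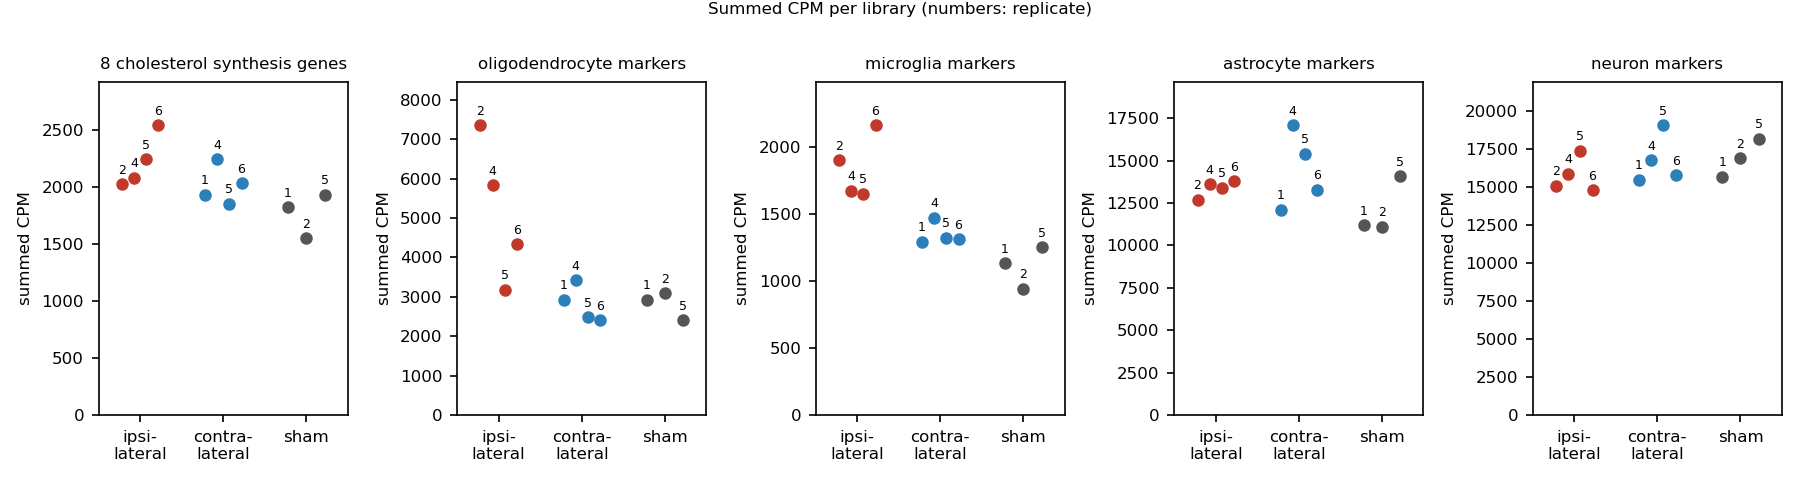
Summed level (CPM) per library of the 8 cholesterol genes and of the oligodendrocyte, microglia, astrocyte and neuron markers, with replicate numbers, for ipsilateral, contralateral and sham cortex. The ipsilateral sums of the 8 genes (2020 to 2540 CPM) and of both oligodendrocyte (3180 to 7360 CPM) and microglia (1650 to 2160 CPM) markers lie above all sham libraries.

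Of 12 further enzymes of cholesterol synthesis, 3 were in the table and 2 were tested, Sqle and Sc5d. Neither passed in edgeR or had an unadjusted p below 0.05 in any comparison. Sqle (squalene epoxidase, which oxidises squalene before it closes into lanosterol) had 97.1, 147, 173 and 155 CPM in ipsilateral libraries, 115, 91.8, 108 and 119 CPM in contralateral libraries and 102, 62.8 and 95.3 CPM in sham libraries. Ipsilateral replicates 4, 5 and 6 lay above every library of both other groups, and ipsilateral replicate 2 lay within their range. The ipsilateral minus sham difference was 0.56 ± 0.31 (edgeR, adjusted p = 0.696), that between ipsilateral and contralateral cortex 0.32 ± 0.27 (0.839) and the contralateral minus sham difference 0.24 ± 0.27 (0.964). Within days, ipsilateral was above contralateral cortex on 3 of 3 days, by 0.35 to 0.63. Sc5d, which introduces a double bond into the sterol ring ahead of the step of Dhcr7, had 82.2, 293, 136 and 68.8 CPM in ipsilateral libraries, 121, 115, 111 and 121 CPM in contralateral libraries and 78.5, 62.8 and 90.0 CPM in sham libraries. All 4 contralateral libraries lay above all 3 sham libraries, and the ipsilateral ones spread over both, with replicate 4 highest on 10 counts. Of all tested genes, 3.39% had every contralateral library above sham. The contralateral minus sham difference of Sc5d was 0.54 ± 0.30 (edgeR, adjusted p = 0.923) and the ipsilateral minus sham difference 0.49 ± 0.36 (0.812).

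Genes that sense sterols and control SREBP ranged from -0.23 to 0.09 in ipsilateral minus sham, from -0.46 to 0.05 in ipsilateral minus contralateral and from -0.14 to 0.54 in contralateral minus sham. Of 17 listed, 7 were in the table and tested, none passed in edgeR or had an unadjusted p below 0.05 in any comparison, and the medians were 0.03 for ipsilateral minus sham, -0.06 for ipsilateral minus contralateral and 0.05 for contralateral minus sham. Srebf2, the SREBP gene that mainly serves cholesterol synthesis, averaged 211 ± 67.4 CPM in ipsilateral, 204 ± 38.4 CPM in contralateral and 206 ± 59.4 CPM in sham cortex (SD, n = 4, 4 and 3), and its ipsilateral minus sham difference was 0.01 ± 0.28 (edgeR, adjusted p = 1.000). The lowest was Scap at -0.23 ± 0.41 (0.951), with a wide spread of 101 ± 90.8 CPM in ipsilateral against 107 ± 49.1 CPM in sham libraries. The highest was Vcp, a segregase that extracts ubiquitinated proteins from membranes, at 0.09 ± 0.17 (0.954). Srebf1 and Insig2, both among the 17 listed, were not in the table. Footprint counts of these genes do not measure how much SREBP is cleaved.

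Of 18 genes for sterol uptake, transport, storage and removal, 11 were in the table and 8 tested, with none passing in edgeR in any comparison and medians of 0.03 for ipsilateral minus sham, -0.02 for ipsilateral minus contralateral and -0.02 for contralateral minus sham. Cyp46a1 alone had an unadjusted p below 0.05, in both ipsilateral comparisons. Over all tested genes the share was 7.74% against sham and 7.61% against contralateral cortex. Cyp46a1, the neuronal enzyme that hydroxylates cholesterol for export from the brain, was the lowest against sham at -0.64 ± 0.23 (edgeR, adjusted p = 0.392). It had 179, 352, 285 and 327 CPM in ipsilateral libraries, 397, 405, 367 and 350 CPM in contralateral libraries and 428, 565 and 334 CPM in sham libraries. In each of these comparisons 3 of 4 ipsilateral libraries lay below all libraries of the other group. The ipsilateral minus contralateral difference was -0.46 ± 0.21 (edgeR, adjusted p = 0.596), below 0 on 3 of 3 days. Apoe, the main apolipoprotein of the brain, averaged 3340 ± 628 CPM in ipsilateral, 3050 ± 579 CPM in contralateral and 2810 ± 687 CPM in sham cortex. Npc1, which lets cholesterol out of lysosomes, was the highest of the list against sham at 0.35 ± 0.26 (edgeR, adjusted p = 0.811) and averaged 273 ± 84.4 CPM in ipsilateral, 199 ± 46.0 CPM in contralateral and 215 ± 20.7 CPM in sham cortex.

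Of 12 fatty acid synthesis genes under SREBP control, 10 were in the table and 9 tested, none passing in edgeR in any comparison. Scd2 and Fads1 against sham, and Fasn and Elovl5 against contralateral cortex, had an unadjusted p below 0.05 in the ipsilateral comparisons. Over all tested genes 7.74% had one against sham and 7.61% against contralateral cortex. The medians of the 9 genes were 0.21 for ipsilateral minus sham, 0.24 for ipsilateral minus contralateral and 0.05 for contralateral minus sham. The highest against sham was the elongase Elovl5 at 0.60 ± 0.31 (edgeR, adjusted p = 0.672) and the lowest the desaturase Fads1 at -0.50 ± 0.23 (0.626). Fads1 had 291, 264, 198 and 241 CPM in ipsilateral libraries, against 310, 440 and 344 CPM in sham libraries, so its ipsilateral libraries all lay below sham. This held for 3.29% of all tested genes. The desaturase Scd2 averaged 2700 ± 435 CPM in ipsilateral, 2270 ± 481 CPM in contralateral and 2050 ± 466 CPM in sham cortex, a difference of 0.40 ± 0.17 between ipsilateral and sham (edgeR, adjusted p = 0.506). Fatty acid synthase, Fasn, measured 0.07 ± 0.21 against sham (0.989) and 0.44 ± 0.19 against contralateral cortex (0.565). Of 11 genes of other mevalonate branches, Fnta and Dhdds were in the table, and neither passed in edgeR or had an unadjusted p below 0.05 in any comparison. Fnta, a subunit of protein prenyltransferases, measured 0.72 ± 0.51 in ipsilateral minus sham (0.803) and Dhdds, for dolichol synthesis, 0.05 ± 0.45 (1.000). Over all alternatives run, DESeq2 and limma-voom included, the lowest adjusted p in ipsilateral against sham cortex was 0.363 for Cyp46a1, 0.352 for Scd2 and 0.615 for Sqle.

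**Figure D5:**
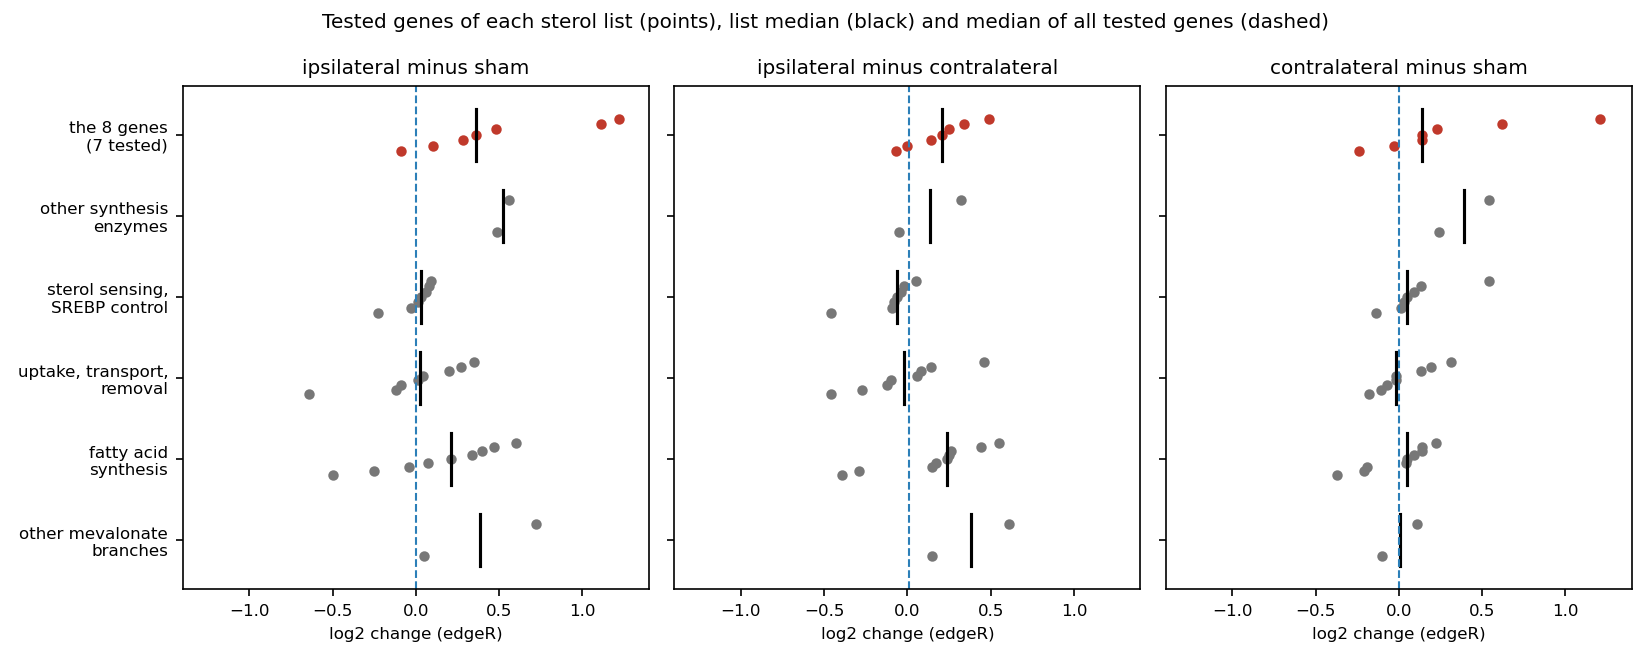
Fitted log2 difference of each tested gene (points) in the 6 sterol and lipid lists, with list medians as black lines and the median of all 3835 tested genes dashed, in each comparison. In ipsilateral minus sham, the median was 0.36 for the 7 tested genes of the 8-gene list and 0.03 for sterol sensing and SREBP control. Msmo1 (-0.09) lay within the range of the sensing list (-0.23 to 0.09), and Fdps (0.10) next to it. The medians of other mevalonate branches (0.39) and fatty acid synthesis (0.21) were also above that of the sensing list. The 2 further synthesis enzymes measured 0.49 and 0.56.

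Across the 11 libraries, the genes whose levels followed the 7 tested genes most closely were Fat1 (r = 0.907), Fkbp2 (0.897), Saraf (0.875), Apod (0.859) and Cacna1b (0.833). Likeness was Pearson's r with the mean centred log2 level of the 7 genes, over 1709 genes with a median count of at least 20, and the top values of so many are given as a description only. The points share library depth and group. Fat1, a giant cadherin, averaged 233 ± 54.5 CPM in ipsilateral, 221 ± 47.2 CPM in contralateral and 153 ± 13.8 CPM in sham cortex (SD, n = 4, 4 and 3). Fkbp2, a prolyl isomerase of the endoplasmic reticulum, averaged 227 ± 21.7 CPM in ipsilateral, 186 ± 27.1 CPM in contralateral and 120 ± 11.8 CPM in sham cortex. All 5 had the order ipsilateral, contralateral, sham in their means, but they were picked for likeness to genes that mostly have this order.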

How the data were processed

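Ribosome-protected fragments were measured in 11 mouse cortex libraries (4 ipsilateral, 4 contralateral and 3 sham). Per the labels' protocols, fragments from purified monosomes were gel-selected, made into small RNA libraries and sequenced on a MiSeq. The deposited values are raw whole-number counts per Ensembl transcript. Per the submitters' processing notes, Bowtie2, edgeR and the build mm10 were used; the annotation release, the counting rule and its use of strand were not given in any source read here. Since strand use is not given, reads of overlapping genes on the opposite strand (for Hmgcs1, Fdft1, Cyp51 and Idi1) cannot be told apart from their own.

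Of 9784 transcripts, 9736 matched GENCODE vM21, and 48 (0.306% of counts) were left out. Many transcripts repeat another transcript's counts in every library (2255), so 1 transcript a gene was kept, the one with the highest summed count. The lowest summed count of a deposited transcript was 101. A gene that is not in the table may still have had footprints below that floor. Counts were fitted in edgeR 4.0.16 (R 4.3.3) over all 11 libraries: filterByExpr with a minimum count of 10 (3835 genes kept, 503 removed), TMM scaling, quasi-likelihood F tests with robust dispersion, Benjamini-Hochberg adjustment over all tested genes and a threshold of 0.05. Standard errors are the log2 difference divided by the square root of F. CPM are counts scaled to a TMM-scaled total of 1000000 over the tested genes. For within-day log2 differences, the CPM worth 2 counts at the mean scaled total was added to both levels. This draws the differences of genes with few counts towards 0, so they are smaller than the ratios of the printed CPM.

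Per the series' design text, a replicate number is a day of surgery, which pairs the samples. Residuals of 7 same-number pairs correlated at -0.139 to 0.224 (median 0.131), and those of 33 other pairs at -0.255 to 0.259 (median -0.03). The main fit had no block. Alternatives were the replicate block, other scaling (RLE), DESeq2 1.42.0, limma-voom (limma 3.58.1), no filter, only the groups compared, counts summed over distinct transcripts, leaving out the 2 shallowest libraries, and leaving out each library. Shared sequence was counted as 28-base words of each transcript found in transcripts of other genes. Promoter windows came from RefSeq.

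The genes, the further pathway lists and the markers were chosen with earlier results of these data known. Named genes are the 8, the highest and lowest tested gene of each further list in ipsilateral minus sham, 10 sterol and lipid genes taken by their role, and the 5 most alike in pattern. Some genes of the further lists are not reported here and were left out of the lists' counts and medians.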

Additional observations from a re-analysis of the deposited data

Results flagged for a closer look

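Insig1 in ipsilateral replicate 6 measured 155 CPM, far from the 44.8, 58.7 and 49.5 CPM of the other ipsilateral libraries. Its gap to the nearest of them was 0.874 of the group's range, above Dixon's 95% critical value for 4 libraries. It was the only one flagged among 16 groups of 4 libraries examined for the 8 genes, and chance flags about 1 in 20 groups. The value rests on 18 counts, with an exact Poisson interval of 91.8 to 245 CPM. The same library also had the highest summed level of the 8 genes, 2540 CPM, and of microglia markers, 2160 CPM; their part in the value was not tested.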

How the results depend on the processing

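None of the 8 genes passed in any comparison under any alternative that gave it an adjusted p. DESeq2 gave none to Dhcr7, Insig1 and Fdps in ipsilateral minus sham and to Insig1 in ipsilateral minus contralateral. The lowest adjusted p of any of them was 0.276, for Dhcr7 in ipsilateral minus sham without ipsilateral replicate 5. Dhcr7 ranged from 0.89 to 1.35 in ipsilateral minus sham and from 1.05 to 1.37 in contralateral minus sham over 20 settings each. Insig1 had values in 14 settings, 0.93 at the lowest, and failed the filter in the others. With the replicate block, the ipsilateral minus sham values were 0.89 for Dhcr7 and 1.32 for Insig1, and the lowest adjusted p of any of the 8 was 0.759. The block left 3 genes called in ipsilateral minus sham and 11 in ipsilateral minus contralateral, and changed no call of the 8. Differences near 0 turned sign. Dhcr7 in ipsilateral minus contralateral was above 0 in 12 of 20 settings, from -0.17 to 0.11. Fdps in ipsilateral minus sham was -0.32 with the replicate block, -0.01 without ipsilateral replicate 2, and -0.16 (without sham replicate 1) to 0.27 when single libraries were left out. Fdft1 in contralateral minus sham was -0.11 with the replicate block. Msmo1 was -0.24 to 0.09 in ipsilateral minus sham when single libraries were left out, above 0 without sham replicate 5, 0.02 in ipsilateral minus contralateral with counts summed over distinct transcripts, and in contralateral minus sham -0.15 to 0.16 when single libraries were left out, 0.16 without sham replicate 5 and 0.02 without contralateral replicate 1 or 4. When single libraries were left out, the medians were over 6 or 7 genes, with Idi1 never and Insig1 not always among them. They were 0.20 (6 genes, without ipsilateral replicate 6) to 0.48 (7 genes, without ipsilateral replicate 5) in ipsilateral minus sham, 0.10 to 0.24 in ipsilateral minus contralateral and 0.10 to 0.23 in contralateral minus sham.

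Over all tested genes, the 4 called in ipsilateral minus sham became 10 in DESeq2 and 0 to 22 when single libraries were left out (0 without sham replicate 1, 2 without sham replicate 5, 22 without ipsilateral replicate 5). The 14 called in ipsilateral minus contralateral became 7 with counts summed over distinct transcripts, 7 without the 2 shallowest libraries and 4 to 26 when single libraries were left out (4 without contralateral replicate 6, 26 without ipsilateral replicate 5). The 0 called in contralateral minus sham became 2 in DESeq2 and 0 to 3 when single libraries were left out (3 without sham replicate 5, 1 without ipsilateral replicate 6). The cause was not tested. Depth limits every value: Dhcr7, Insig1 and Idi1 rest on 0 to 18 counts in the ipsilateral and sham libraries.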
